A study of Mus musculus with 24 samples.

Results

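The 10 genes described here encode surface proteins used to recognise or target leukaemia stem cells, the cells that can restart a leukaemia after transplantation: Cd34, Cd93, Ly6a, Il1rap, Cd33, Clec12a, Cd44, Cd47, Cd244 and Cd200r1. They were taken by symbol from a table of 24046 genes, as a list of known markers drawn up with earlier results of these data known. All 10 of 10 passed the filter on low counts that left 14099 genes for testing. Their RNA was measured in bone marrow leukaemia cells of moribund mice, driven by MLL-AF9, a fusion of the histone methyltransferase MLL with the elongation factor subunit AF9. There were 24 libraries in 8 groups of 3, which make 4 sets of a floxed group and its own control group.

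The VavCre Arid1b set held Arid1b fl/fl VavCre+ cells (floxed) and Arid1b +/+ VavCre+ cells (control), and the VavCre Arid2 set held Arid2 fl/fl VavCre+ cells and Arid2 +/+ VavCre+ cells. The products of Arid1b and Arid2 are ARID-domain subunits of SWI/SNF, a complex that moves nucleosomes, and fl/fl means that both copies carry sites that Cre can cut. Both remaining sets carry MxCre, which interferon switches on: one is titled A2 but described as Arid1b fl/fl MxCre+ (floxed) and Arid1b +/+ MxCre+ (control) cells, the other is titled A1b but described as Arid2 fl/fl MxCre+ and Arid2 +/+ MxCre+ cells. Because title and description name different genes, both are called here by title, and no deleted gene is assigned to them. Mice that received MxCre cells were injected 3 times within a week with pIpC, which induces interferon, at 12.5 µg per g of mouse, starting 21 days after transplantation. All groups, controls included, carry MLL-AF9 and a Cre. Titles of the VavCre Arid1b set and of both MxCre sets hold a tag that reads as secondary leukaemia. Titles of the VavCre Arid2 set do not, so any difference in transplant passage cannot be told apart from the set. VavCre acts throughout the blood lineage and MxCre in every cell that responds to interferon, so neither deletes in stem cells alone. Whether the 3 libraries of a group stem from separate leukaemias is not stated, so each p-value measures spread between these particular samples only, and that spread may be partly technical.

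In MLL-AF9 leukaemia the cells with stem cell activity are known to resemble granulocyte and macrophage progenitors, which carry Kit and Cd34 and little or no Sca-1, the product of Ly6a. Several of the other markers were found on human leukaemia stem cells and are followed because antibodies can reach them, such as the lectins Cd33 and Clec12a, the interleukin-1 co-receptor Il1rap, and Cd47, which restrains phagocytosis by macrophages. A marker's RNA in bulk marrow says nothing of which cells carry it: fewer cells of a type and less RNA per cell cannot be told apart.

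Depth ran from 12069153 to 38315410 counts per library, and the smallest count of any marker in a library was 5. Arid1b lay at 55.7 to 442 CPM and Arid2 at 121 to 547 CPM over the 24 libraries, and neither passed the test in any set (0 of 4). CPM are read counts scaled to a common library size, after adjustment for library composition. The deleted exons are not given, so these counts check no deletion. The labelled cell type had most of its listed markers: Ptprc, Spi1, Myb, Meis1, Hoxa9, Cebpa and Itgam exceeded 20 CPM in every library. The other genes of that list did not, with lowest values of 0.39 CPM for Hoxa10 and 5.12 CPM for Mef2c. Defining genes of other cells were scarce, with medians of 0.913 CPM for Cd3e and 0.147 CPM for Kdr, but Cd79b reached 64.7 CPM, Pdgfrb 127 CPM and the neutrophil gene S100a8 4489 CPM. An earlier analysis of these data found 3 libraries that stood apart, namely VavCre Arid1b control 3, A2-titled floxed 3 and A1b-titled floxed 2. Results without them depend on this choice, made from the same data. By chi-square per degree of freedom against both replicates, which grows with depth, other libraries were as far from their groups. VavCre Arid2 floxed 3 had 122 and 190, beside 135 and 136 for VavCre Arid1b control 3. A1b-titled floxed 1 had 210 and 125, beside 210 and 124 for floxed 2. Kdm5d, on the Y chromosome, exceeded 10 CPM in 0 of 3 floxed and 3 of 3 control libraries of the VavCre Arid1b set, and in 3 of 3 floxed and 0 of 3 control libraries of the MxCre set titled A2. In those sets sex and genotype cannot be told apart. Within 3 other groups the libraries differed in Kdm5d: VavCre Arid2 floxed 2, A1b-titled floxed 1, and A1b-titled control 1 and 3 were above 10 CPM, unlike the others of their groups.

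The markers differed widely in abundance. On a scale of CPM per kilobase of exon, which allows genes to be compared, the median level over 24 libraries was 128 for Clec12a, 82.0 for Cd47, 59.5 for the hyaluronan receptor Cd44, 51.9 for Cd93, 45.8 for Cd33 and 25.3 for Cd34. It was 10.7 for Cd244, 2.76 for Il1rap, 2.44 for Cd200r1 and 0.88 for Ly6a. On GRCm38 (GENCODE M21) the stem and progenitor markers are annotated as Cd34 at chr1:194938819-194961279 (plus strand), Cd93 at chr2:148436640-148443563 (minus strand) and Ly6a at chr15:74994877-74998031 (minus strand). The receptors are Il1rap at chr16:26581704-26730117 (plus strand), Cd244 at chr1:171559193-171609746 (plus strand) and Cd200r1 at chr16:44765736-44794978 (plus strand). The lectins, Cd44 and Cd47 are Cd33 at chr7:43524216-43544428 (minus strand), Clec12a at chr6:129342691-129365303 (plus strand), Cd44 at chr2:102811141-102901665 (minus strand) and Cd47 at chr16:49800533-49915010 (plus strand). Counting was by gene symbol, and the strand setting is not given. Cd34 overlaps Gm16897, Il1rap overlaps Gm20319 and Cd244 overlaps Ly9, each on the opposite strand, so reads of these pairs may be mixed. Ly6a has close relatives in the Ly6 family and Cd200r1 in the Cd200r family, which makes their low counts uncertain too.

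**Figure D1:**
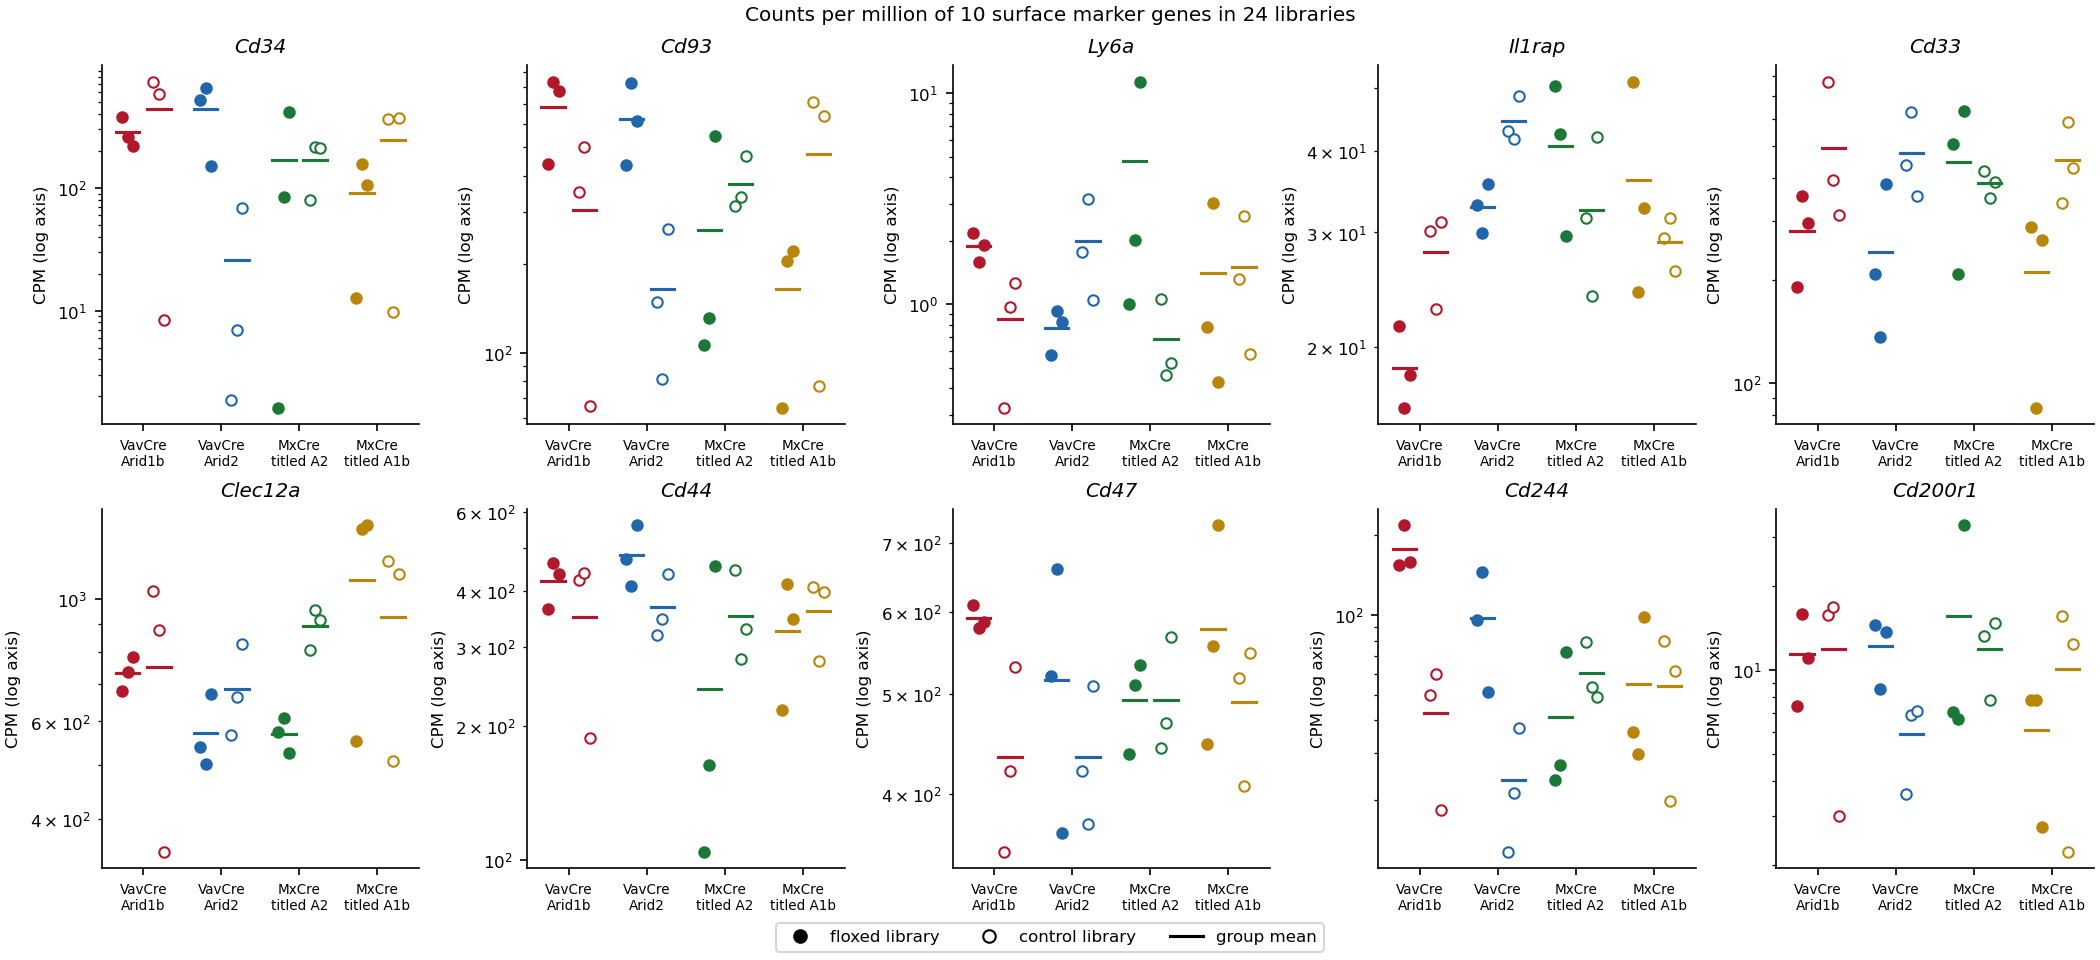
CPM (log axis) of each marker gene in every library; filled points are floxed libraries, open points control libraries, and bars are group means over 3 libraries, with floxed left of control in each set. Cd34 runs from 1.61 to 736 CPM and Cd47 only from 352 to 728 CPM, and Cd244 is higher in every floxed library than in every control library of both VavCre sets.

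Promoter sequences were at hand for 7 of the 10 genes (RefSeq, GRCm38.p6, from 250 bases before to 50 bases after a transcript start, given 5′ to 3′ on the gene's strand). The 4 shown belong to Cd34, Cd244 and Cd44, whose RNA moved together across libraries, and to Il1rap, which moved against them. Capitals mark matches, on either strand, to letters bound by blood cell and general factors: GAGGAA for ETS factors such as PU.1, AGATAA for GATA factors, TGTGGT for RUNX factors, TTGCNNAA for C/EBP factors, TGATTTAT for HOX with PBX, CCAAT for the CCAAT box, and GGGCGG for the GC box.
Cd34 (chr1:194938571-194938870, plus strand): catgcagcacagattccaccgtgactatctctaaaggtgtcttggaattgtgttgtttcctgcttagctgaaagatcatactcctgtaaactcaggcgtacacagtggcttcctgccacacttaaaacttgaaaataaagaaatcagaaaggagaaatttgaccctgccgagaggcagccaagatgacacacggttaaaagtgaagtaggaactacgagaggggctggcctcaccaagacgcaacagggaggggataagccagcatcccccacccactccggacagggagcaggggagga
Cd244 (chr1:171558943-171559242, plus strand): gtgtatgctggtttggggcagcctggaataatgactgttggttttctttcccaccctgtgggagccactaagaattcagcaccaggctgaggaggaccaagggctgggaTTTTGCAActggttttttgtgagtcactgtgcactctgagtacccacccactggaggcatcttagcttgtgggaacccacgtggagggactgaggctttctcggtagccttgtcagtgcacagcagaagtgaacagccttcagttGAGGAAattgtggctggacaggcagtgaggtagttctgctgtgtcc
Cd44 (chr2:102901616-102901915, minus strand): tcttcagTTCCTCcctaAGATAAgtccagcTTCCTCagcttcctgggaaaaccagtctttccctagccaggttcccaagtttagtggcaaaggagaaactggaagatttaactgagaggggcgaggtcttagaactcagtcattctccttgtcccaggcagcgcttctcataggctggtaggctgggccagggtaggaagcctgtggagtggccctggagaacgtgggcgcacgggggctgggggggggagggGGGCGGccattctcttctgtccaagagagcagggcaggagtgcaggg
Il1rap (chr16:26581455-26581754, plus strand): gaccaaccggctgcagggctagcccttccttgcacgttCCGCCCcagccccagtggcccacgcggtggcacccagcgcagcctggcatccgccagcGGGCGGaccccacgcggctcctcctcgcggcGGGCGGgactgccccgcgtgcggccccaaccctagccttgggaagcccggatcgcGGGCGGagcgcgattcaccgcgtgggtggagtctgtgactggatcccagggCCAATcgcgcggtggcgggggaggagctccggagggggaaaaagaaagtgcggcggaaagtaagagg
The Cd34 window held 0 matches to any of the 7 sets of letters. The Cd244 window had 1 match to GAGGAA, found in 28.3% of 32851 promoter windows of this length, and 1 to TTGCNNAA, found in 10.8%. The Cd44 window had 2 matches to GAGGAA, 1 to AGATAA (11.2% of windows) and 1 GC box (35.7%). The Il1rap window, with 72.0% G and C, had 4 GC boxes and 1 CCAAT (37.4%). TGTGGT occurred in 16.8% of all windows and TGATTTAT in 0.977%, and neither occurred in these 4. No set of letters occurred in all 3 of the genes that moved together.

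The question put to the sets was whether loss of an ARID subunit alters these markers. At a Benjamini-Hochberg adjusted p under 0.05 in edgeR's quasi-likelihood test over 14099 genes, 0 of 10 markers changed in any of the 4 sets. Of all tested genes, 6.57% changed in the VavCre Arid1b set and 1.31% in the VavCre Arid2 set, against 0.0284% for the A2-titled and 0.00709% for the A1b-titled MxCre set, so a count of 0 among 10 genes lies near the background in each. At an unadjusted p under 0.05 there were 3, 3, 1 and 1 markers in that order, beside 3377, 2753, 1489 and 2450 of all 14099 genes. DESeq2 called 1, 2, 1 and 0 markers, beside 1815, 1095, 196 and 478 of all genes. With sample weights, limma's voom called 5, 7, 1 and 0 markers, beside 4203, 4684, 1223 and 12 of all genes. Groups that do not overlap were more frequent: 4 of 10 markers in the VavCre Arid1b set against 32.4% of all tested genes, 6 of 10 in the VavCre Arid2 set against 36.1%, and 1 of 10 in each MxCre set against 15% in the set titled A2 and 14.1% in the set titled A1b. The markers' median log2 fold change, floxed over control, was 0.11, 0.32, -0.01 and -0.13, beside -0.06, 0.00, 0.02 and 0.01 for all tested genes.

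**Figure D2:**
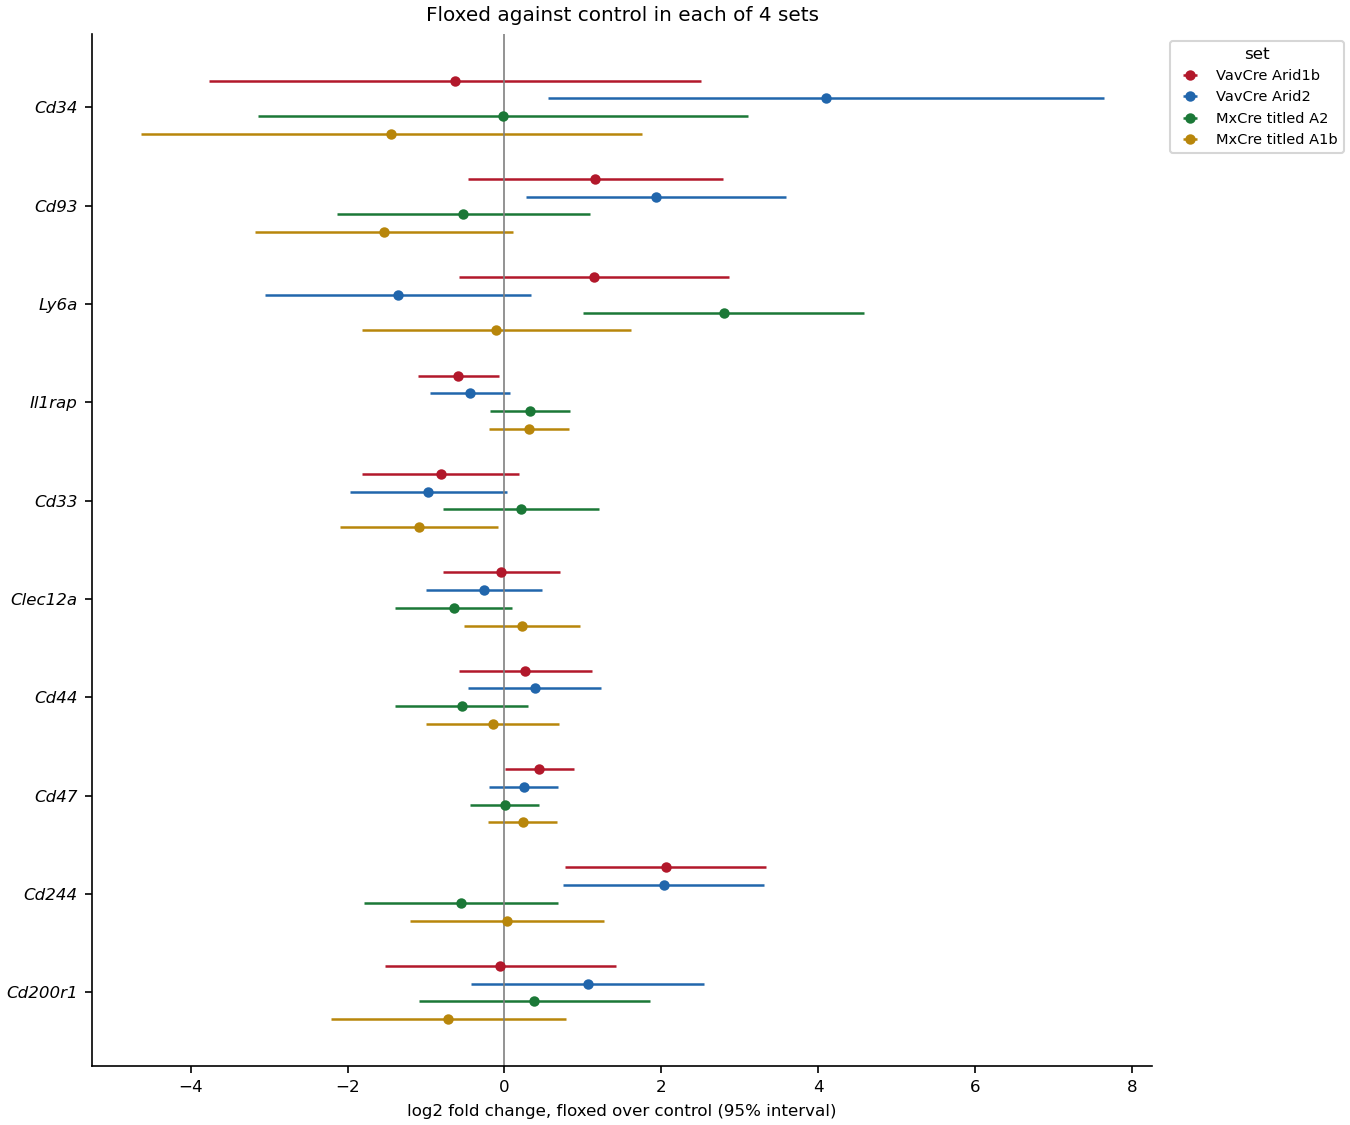
Log2 fold change of each marker, floxed over control (points), with its 95% interval from edgeR's quasi-likelihood fit (lines), in the 4 sets given by colour. The Cd244 intervals of both VavCre sets lie above 0, from 0.77 to 3.34 and from 0.75 to 3.31, while those of both MxCre sets span 0, and Cd34 has the widest intervals.

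Cd244 (2B4, a SLAM family receptor that binds Cd48 and signals through SAP adaptors and Fyn) came nearest to the threshold. Its VavCre Arid1b values were 155, 218 and 158 CPM in floxed libraries and 49.8, 59.7 and 18.4 CPM in controls. Its VavCre Arid2 values were 95.6, 146 and 51.1 CPM in floxed libraries and 12.7, 21.3 and 37.5 CPM in controls. Every floxed library exceeded every control of its set in both. The log2 fold changes were 2.06 ± 0.61 (SE, n = 3 each, edgeR adjusted p 0.0503) and 2.03 ± 0.61 (n = 3 each, edgeR adjusted p 0.0915). Whether the first was called turned on the fit. Its adjusted p was 0.0494 with DESeq2's size factors in edgeR, 0.0384 in edgeR with the set's 6 libraries alone, 0.00547 in DESeq2 and 0.000810 in voom. These were its only calls, 4 of 14 alternatives. In edgeR it was not called with no filter, a replicate block, a term for Y-positive libraries or any single library left out (adjusted p up to 0.220). Without the libraries that stood apart its edgeR adjusted p was 0.0943, at a log2 fold change of 1.71. Without those libraries the VavCre Arid2 value, 2.04, had an adjusted p of 0.0318 in edgeR. As none of them belongs to the VavCre Arid2 set, that set's own libraries were unchanged and only what the fit shares between groups differed. The Arid2 value was also called by DESeq2 (0.0124) and voom, in all 3 of 14 alternatives, with adjusted p up to 0.311.

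The MxCre sets did not show this pattern for Cd244. The set titled A2 had 23.9, 27.1 and 72.8 CPM in floxed libraries and 79.0, 53.7 and 49.1 CPM in controls. The set titled A1b had 36.3, 29.9 and 98.3 CPM in floxed libraries and 80.1, 19.8 and 61.3 CPM in controls. Groups overlapped in both, and the log2 fold changes were -0.56 (95% interval -1.80 to 0.68) and 0.03 (-1.21 to 1.27). The test that the change differs among the 4 sets gave an edgeR adjusted p of 0.0831 for Cd244. In that test 0 of 10 markers passed, beside 4.87% of all genes. At an unadjusted p under 0.05 there were 4, beside 4044 of 14099 genes. DESeq2 called 3 (Cd244, Cd93 and Ly6a), beside 2644 of all genes, and voom 7, beside 7393. Without the libraries that stood apart edgeR called 5 (Cd244, Cd44, Cd93, Il1rap and Ly6a), beside 2229 of all genes. Leaving out A2-titled floxed 3 alone brought Cd244 (adjusted p 0.0344), Cd44 (0.0437) and Cd93 (0.0436) past the threshold. Leaving out A1b-titled control 2 or floxed 3 brought Cd244 past it (0.0452 and 0.0473).

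Genes of other cells moved with Cd244 in the VavCre Arid1b set. The summed level of 12 dendritic cell and MHC class II genes was 1234 to 3079 CPM in floxed libraries and 76.0 to 278 CPM in controls, and 10 of the 12 rose while 0 fell. In the VavCre Arid2 set the sum was 224 to 1125 CPM in floxed libraries and 89.6 to 125 CPM in controls, with 0 of 12 called. Flt3, which also stands on the list of other surface markers, made 1066 of the 1125 CPM in floxed 2 of that set. The 12 genes had a median log2 fold change of 0.05 there, with 7 above 0. Over 24 libraries the sum had a correlation of 0.83 with Cd244 on the log2 scale, against 0.45 for Cd74 alone and 0.52 for H2-Ab1 alone. The part of the sum in the result was not tested. The summed level of 9 T and NK cell genes, cells that also carry Cd244, was 3.40 to 22.1 CPM in floxed libraries and 22.1 to 34.7 CPM in controls of the VavCre Arid1b set. For the VavCre Arid2 set it was 6.72 to 49.2 CPM in floxed libraries and 9.22 to 12.98 CPM in controls, and 0 of 8 tested genes were called in either set. Its part was not tested. Ly9, which overlaps Cd244, had a correlation of 0.58 with it.

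Il1rap, the shared co-receptor for interleukin-1 and interleukin-33, lay the other way in the VavCre sets. The VavCre Arid1b set had 21.5, 16.1 and 18.1 CPM in floxed libraries and 30.2, 22.9 and 31.1 CPM in controls. The VavCre Arid2 set had 33.0, 29.9 and 35.6 CPM in floxed libraries and 43.0, 41.8 and 48.6 CPM in controls. Each floxed library was below each control of its set. The log2 fold changes were -0.59 ± 0.25 (SE, n = 3 each, edgeR adjusted p 0.15) and -0.44 ± 0.24 (n = 3 each, edgeR adjusted p 0.337). Neither was called by edgeR or DESeq2, and voom called both (0.00980 and 0.0315). The A2-titled set had 50.3, 42.5 and 29.6 CPM in floxed libraries and 31.5, 23.98 and 42.1 CPM in controls. The A1b-titled set had 51.2, 24.3 and 32.7 CPM in floxed libraries and 29.5, 31.5 and 26.2 CPM in controls. Here the groups overlapped, with log2 fold changes of 0.33 (95% interval -0.18 to 0.84) and 0.31 (-0.20 to 0.83). The summed dendritic cell and MHC class II level had a correlation of -0.86 with Il1rap over 24 libraries. Cd74 alone had -0.64 and H2-Ab1 alone -0.75, and the part of the sum was not tested.

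Cd244 and Il1rap were the markers that differed among the 8 groups as a whole, at edgeR adjusted p of 0.0459 and 0.0469. With them 2 of 10 markers passed, beside 7.98% of all tested genes. An unadjusted p under 0.05 was found for 3 of 10 markers, beside 4118 of 14099 genes. Cd244 averaged 177 ± 35.6 CPM (SD, n = 3) in VavCre Arid1b floxed, the highest group, and 23.9 ± 12.6 CPM in VavCre Arid2 control, the lowest. Il1rap averaged 18.6 ± 2.74 CPM in VavCre Arid1b floxed, its lowest group, and 44.5 ± 3.62 CPM in VavCre Arid2 control, its highest. Both calls were close: leaving out single libraries lost the Cd244 call in 16 of 24 cases (adjusted p up to 0.142) and the Il1rap call in 17 of 24 (up to 0.145). Among single libraries left out, the Cd244 call was kept only without VavCre Arid1b control 3, VavCre Arid2 control 3 or floxed 3, A2-titled floxed 3, or A1b-titled control 2 or floxed 1, 2 or 3. The Il1rap call was kept only without VavCre Arid1b control 3, A2-titled control 2, control 3 or floxed 3, or A1b-titled control 2, floxed 1 or floxed 2. Both were kept, at 0.0151 and 0.0104, without the libraries that stood apart. With a term for Y-positive libraries they were lost, at 0.0589 and 0.0662.

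With each marker's 8 groups ordered by mean level, the libraries of adjacent groups overlapped in 68 of 70 comparisons. Ordering by mean places like groups side by side, and the same count was not made for all genes. It is therefore a description and no trait particular to the markers. The exceptions were Cd244 in VavCre Arid1b floxed, above VavCre Arid2 floxed, and Il1rap in VavCre Arid1b floxed, below VavCre Arid1b control. Among the 4 control groups alone 0 of 10 markers differed by edgeR, beside 0.0922% of all genes. There 1 marker, Il1rap, had an unadjusted p under 0.05, beside 1619 of 14099 genes. DESeq2 called 0 markers, beside 348 of all genes, and voom 5, beside 4993.

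Cd34, a sialomucin of stem and progenitor cells, was the most uneven marker. It spanned 458-fold, with the lowest value, 1.61 CPM, in A2-titled floxed 1 and the highest, 736 CPM, in VavCre Arid1b control 1. Within groups its SD on the log2 scale was 2.54, larger than that of 99.7% of tested genes, against a median of 0.36. In 6 libraries it lay between 1.61 and 12.6 CPM and in 18 at 69.1 CPM or more, and the low ones came from 5 groups, floxed and control alike. The A2-titled set had 1.61, 84.2 and 417 CPM in floxed libraries and 80.4, 216 and 213 CPM in controls. The A1b-titled set had 12.6, 156 and 105 CPM in floxed libraries and 362, 9.81 and 371 CPM in controls. Its VavCre Arid1b values were 378, 261 and 219 CPM in floxed libraries and 736, 581 and 8.42 CPM in controls. All 3 of these sets overlapped, with log2 fold changes of -0.02, -1.44 and -0.63 and intervals more than 6 units wide. Without the libraries that stood apart these were -1.97, -2.06 and -1.19, none of them called by edgeR.

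The VavCre Arid2 set alone showed no overlap for Cd34. There it had 520, 658 and 150 CPM in floxed libraries and 1.88, 6.98 and 69.1 CPM in controls, a log2 fold change of 4.09 ± 1.69 (SE, n = 3 each) that edgeR did not call (adjusted p 0.193) and DESeq2 did (0.0497). The change differed from that of the VavCre Arid1b set by -4.72 ± 2.22 (Arid1b change minus Arid2 change, edgeR adjusted p 0.5). The 6 B cell genes summed to 2.44 to 5.89 CPM in floxed libraries and 22.6 to 31.2 CPM in controls of the VavCre Arid2 set, without overlap, and 1 of 5 tested genes fell. The 11 neutrophil genes summed to 1784 to 10485 CPM in floxed libraries and 9123 to 16150 CPM in controls of that set, with a median log2 fold change of -2.86 and 1 of 11 genes called lower. Over 24 libraries the neutrophil sum had r = -0.58 with Cd34 and -0.71 with Cd244, the B cell sum 0.21 and 0.11, and their part was not tested. In the comparison of both VavCre changes 0 of 10 markers passed, beside 0.0142% of all genes. At an unadjusted p under 0.05 there were 2, beside 1389 of 14099 genes. DESeq2 called 0, beside 252 of all genes, and voom 2, beside 2494.

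**Figure D3:**
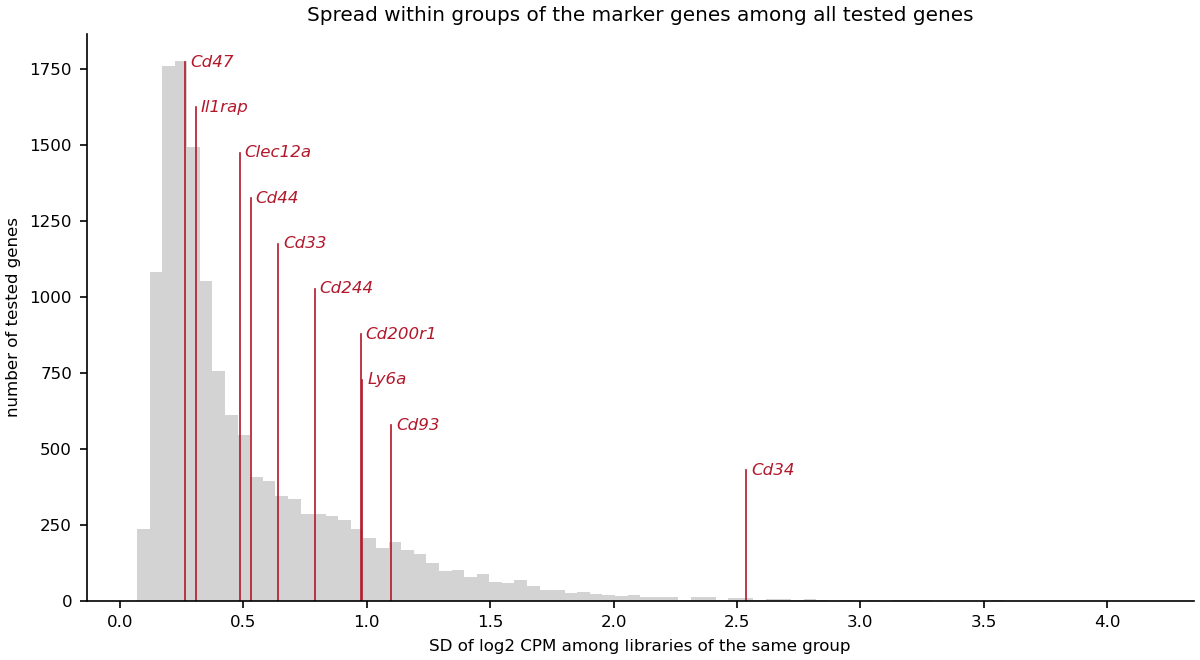
Histogram of the SD of log2 CPM among libraries of the same group (x axis) over 14099 tested genes (y axis, number of genes), with the 10 markers drawn as lines. Cd34, at 2.54, lies far in the upper tail, and Cd47, at 0.26, and Il1rap, at 0.31, lie below the median of 0.36.

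Cd34 had close companions across libraries. Of all named genes tested, Oaf (Pearson r 0.98, n = 24 libraries) and Gata2 (0.98), a transcription factor of stem cells, progenitors and mast cells, were most like it. The carboxypeptidase Cpa3 of mast cells had r = 0.91 with it. Mcpt8 and Ms4a2, which mark basophils and mast cells, had -0.17 and -0.26, and Fcer1a stayed below 1 CPM in all 24 libraries. The summed level of 7 mast cell and basophil genes was 66.3 to 286 CPM in floxed libraries and 16.0 to 25.3 CPM in controls of the VavCre Arid2 set. Of 5 tested genes 0 were called, and the part of the sum was not tested. Gata2 and Cpa3 are in this list, so the sum largely repeats them: in VavCre Arid2 floxed 1 they had 119 and 98.7 CPM of 235 CPM. Mcpt8 overlapped between floxed and control libraries of that set. Kit had -0.11 with Cd34 and Hoxa9 -0.60. Gm16897, on the opposite strand of Cd34, had 0.99 with it.

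Cd93, a C-type lectin-like receptor of endothelial, myeloid and progenitor cells, resembled Cd34. Its VavCre Arid2 values were 435, 828 and 616 CPM in floxed libraries and 149, 81.1 and 263 CPM in controls, without overlap. The log2 fold change was 1.93 ± 0.79 (SE, n = 3 each, edgeR adjusted p 0.190, DESeq2 0.0732), called by voom alone (0.00533). The VavCre Arid1b set had 438, 837 and 778 CPM in floxed libraries and 353, 500 and 65.7 CPM in controls, which overlapped (1.16, 95% interval -0.46 to 2.78, and 0.70 without the libraries that stood apart). The A2-titled set had 106, 131 and 545 CPM in floxed libraries and 315, 340 and 469 CPM in controls. The A1b-titled set had 64.8, 206 and 223 CPM in floxed libraries and 712, 76.9 and 638 CPM in controls. Both MxCre sets overlapped, with log2 fold changes of -0.52 and -1.53, the reverse in sign of the VavCre sets. Without the libraries that stood apart they were -1.65 and -1.71, neither called by edgeR. The endothelial genes Kdr, Emcn, Cdh5 and Tie1 stayed below 1 CPM in all 24 libraries. With stromal genes added, the 10 genes of that list summed to 10.1 to 20.7 CPM in floxed libraries and 55.9 to 152 CPM in controls of the A1b-titled set, without overlap, with a median log2 fold change of -2.01 and 0 of 8 tested genes called. The sum had r = 0.35 with Cd93 over 24 libraries, and its part was not tested.

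**Figure D4:**
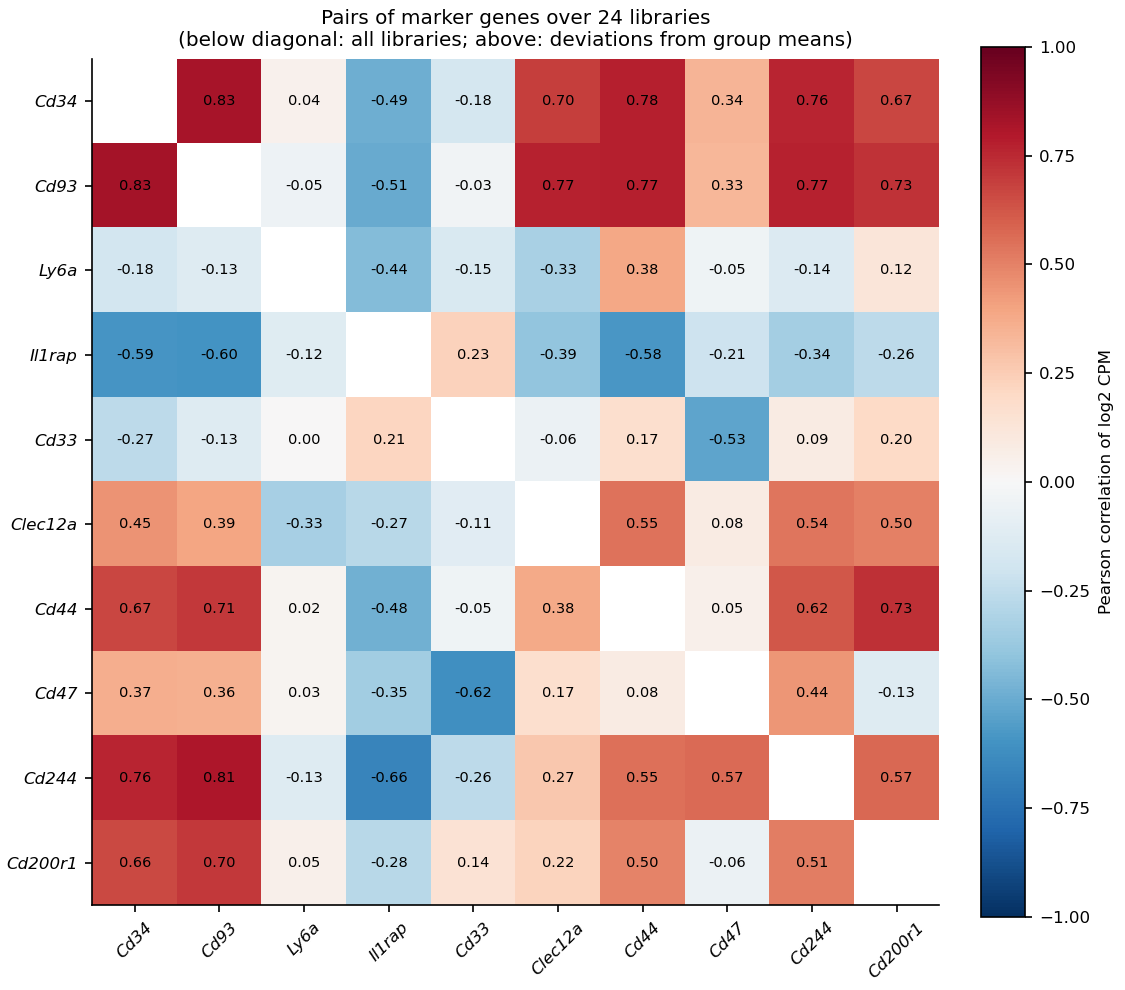
Pearson correlation of log2 CPM for each pair of the 10 markers over 24 libraries, below the diagonal with all libraries and above it after subtracting each group's mean. Cd34, Cd93, Cd44, Cd244 and Cd200r1 form a block of positive values, and Il1rap is negative with each of them.

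Across libraries the markers split into those that moved together and those that did not. The 24 points share their sets, with 3 libraries per group, and differ in depth, so the correlations are descriptions. Of 45 pairs, 10 had r above 0.5 and 4 below -0.5. Cd34 and Cd93 had r = 0.83 (Spearman 0.76), Cd93 and Cd244 0.81 (0.80), Cd34 and Cd244 0.76 (0.71), and Cd93 and Cd44 0.71 (0.69). After each group's mean was subtracted these pairs kept 0.83, 0.77, 0.76 and 0.77. Part of the relation to Cd34 rested on its low libraries: within the 18 libraries above 50 CPM, r was 0.60 with Cd93, 0.38 with Cd244 and 0.31 with Cd44. Without the 2 libraries farthest from the median of Cd34, r was 0.89 with Cd93, 0.70 with Cd244 and 0.59 with Cd44.

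Il1rap ran against this block, with r of -0.66 with Cd244, -0.60 with Cd93 and -0.59 with Cd34. After subtracting group means these were -0.34, -0.51 and -0.49. Cd33 and Cd47 formed the other opposed pair (-0.62). The gene most like Cd93 was the integrin subunit Itgb3 (r 0.94), the gene most like Cd244 was Zswim4 (0.94), and the gene most like Il1rap was Lmbr1 (0.92). Tmem229b (0.94) came next for Cd93, Brd1 (0.93) for Cd244 and Tcam1 (0.88) for Il1rap.

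**Figure D5:**
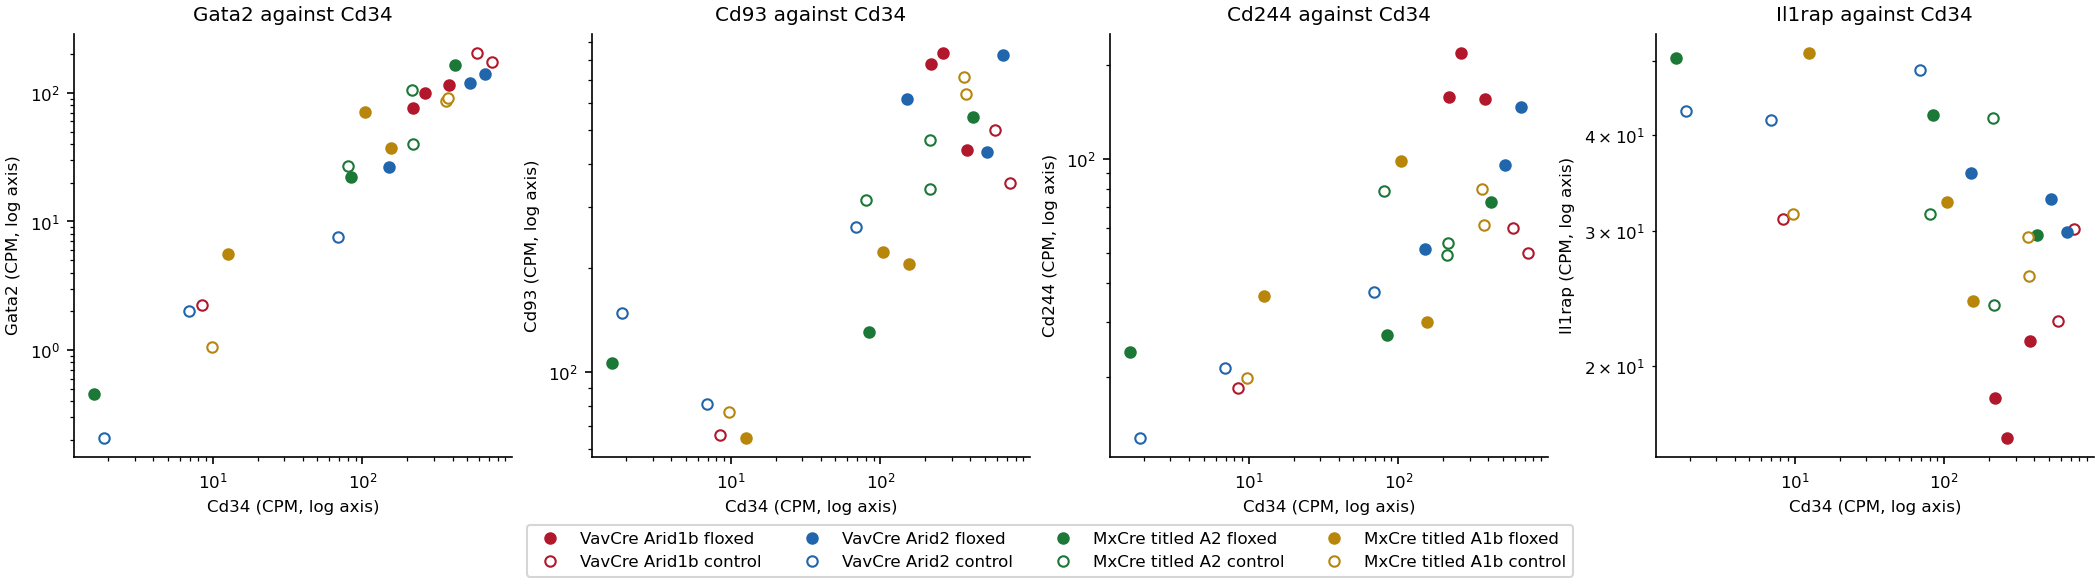
Gata2, Cd93, Cd244 and Il1rap (y axes, CPM, log axes) against Cd34 (x axes, CPM, log axes) in 24 libraries, coloured by set, filled for floxed and open for control. Gata2 follows Cd34 over its whole range, Cd93 and Cd244 are low in the libraries with little Cd34, and Il1rap is lower where Cd34 is high.

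Cd200r1 encodes the receptor for Cd200 and restrains myeloid cells. The VavCre Arid2 set had 14.5, 8.53 and 13.7 CPM in floxed libraries and 3.60, 6.88 and 7.16 CPM in controls, without overlap (log2 fold change 1.06, edgeR adjusted p 0.430, voom 0.0329). In the other sets the groups overlapped, with log2 fold changes of -0.05 (VavCre Arid1b), 0.38 (titled A2) and -0.72 (titled A1b). Its highest library was floxed 3 of the set titled A2, at 33.1 CPM, and without the libraries that stood apart that set's value was -0.79. Crlf3 (r 0.87) and Acad12 (0.86) were most like it.

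Ly6a, whose product Sca-1 marks normal stem cells and lymphocytes, was near the limit of the data. Its median was 1.06 CPM and 23 of 24 libraries lay below 4 CPM. Its VavCre Arid1b values were 2.17, 1.59 and 1.92 CPM in floxed libraries and 0.323, 0.971 and 1.27 CPM in controls, and in the VavCre Arid2 set 0.573, 0.932 and 0.824 CPM in floxed libraries and 1.77, 3.16 and 1.05 CPM in controls. The groups did not overlap in either, higher in the Arid1b and lower in the Arid2 floxed libraries. The log2 fold changes were 1.14 (edgeR adjusted p 0.424) and -1.35 (edgeR adjusted p 0.374), and their difference of 2.50 ± 1.15 was called by voom (0.00577) but not by edgeR (adjusted p 0.490).

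The largest Ly6a value, 11.4 CPM, came from floxed 3 of the set titled A2, whose other floxed libraries had 1.00 and 2.03 CPM, against 1.06, 0.461 and 0.526 CPM in controls. That set's log2 fold change was 2.79 ± 0.86 (SE, n = 3 each, edgeR adjusted p 0.279, DESeq2 0.0486) and was 1.15 without the libraries that stood apart. In the same library 7 erythroid genes summed to 558 CPM, against 2.87 to 4.57 CPM in the other 2 floxed libraries and 3.46 to 7.14 CPM in the controls. Over 24 libraries the erythroid sum had r = 0.77 with Ly6a. T and NK cell genes summed to 20.4 to 80.8 CPM in floxed libraries and 10.9 to 16.0 CPM in controls of that set, without overlap and highest in the same floxed 3, with a median log2 fold change of 1.87 and 0 of 8 genes called. Their sum had r = 0.23 with Ly6a over 24 libraries, and the part of either list was not tested. Trim30b (r 0.82) and the erythroid anion exchanger Slc4a1 (0.80) were most like Ly6a, at 0.71 and 0.64 without the libraries that stood apart. The set titled A1b had 0.778, 3.04 and 0.427 CPM in floxed libraries and 1.32, 2.62 and 0.584 CPM in controls. The 7 erythroid genes summed to 372 CPM in A1b-titled floxed 2 and 49.7 CPM in control 2. The other libraries of that set had 2.08 to 4.19 CPM. For the VavCre Arid1b set the sum was 6.43 to 22.2 CPM in floxed libraries and 1.88 to 3.15 CPM in controls. Those groups did not overlap, with a median log2 fold change of 4.04 and 0 of 7 genes called. The groups of the VavCre Arid2 set overlapped, at a median of -0.09, and the part of these sums was not tested.

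Cd33, a lectin of the Siglec family on myeloid cells, had negative log2 fold changes in 3 sets. It was called in none of the 4 by edgeR, and by voom in both VavCre sets (adjusted p 0.0457 for Arid1b and 0.0120 for Arid2). The A1b-titled set had 288, 84.1 and 264 CPM in floxed libraries and 339, 588 and 429 CPM in controls, without overlap. The log2 fold change was -1.09 ± 0.48 (SE, n = 3 each, edgeR adjusted p 0.249), and -0.70 without the libraries that stood apart, one of which is the 84.1 CPM library. The VavCre sets overlapped: 191, 355 and 296 CPM in floxed libraries and 772, 395 and 311 CPM in controls for Arid1b (-0.81), and 208, 136 and 384 CPM in floxed libraries and 439, 630 and 356 CPM in controls for Arid2 (-0.97). The set titled A2 was at 0.21. Mkl1 (r 0.80) and Akap9 (0.79) were most like Cd33.

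Clec12a, an inhibitory lectin of myeloid cells also called CLL-1, was the most abundant marker per length. The A2-titled set had 574, 608 and 526 CPM in floxed libraries and 810, 955 and 914 CPM in controls, without overlap, at a log2 fold change of -0.65 ± 0.36 (SE, n = 3 each, edgeR adjusted p 0.550). The other sets overlapped and lay between -0.26 and 0.22. Its lowest library was control 3 of the VavCre Arid1b set, at 349 CPM, and its highest floxed 3 of the set titled A1b, at 1358 CPM. Slc39a4 (r 0.82) and Shf (0.82) were most like it. In the A2-titled set 6 B cell genes summed to 8.79 to 30.5 CPM in floxed libraries and 39.6 to 47.3 CPM in controls. Yet 4 of the 5 tested had log2 fold changes above 0. The 11 neutrophil genes summed to 13606 to 19095 and 5847 to 7972 CPM, and all 11 lay above 0. Of either list 0 genes were called there. Over 24 libraries the sums had r = 0.63 and -0.11 with Clec12a, and their part was not tested.

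Cd47, the signal that restrains phagocytosis, was the steadiest marker, within 2.07-fold over all 24 libraries. The VavCre Arid1b set had 609, 580 and 587 CPM in floxed libraries and 352, 422 and 531 CPM in controls, without overlap. The log2 fold change was 0.44 ± 0.21 (SE, n = 3 each, edgeR adjusted p 0.207) and was not called by edgeR or DESeq2, while voom called it. The other sets overlapped, at 0.25, 0.00 and 0.23. N4bp3 (r 0.83) and Wipi2 (0.80) were most like it.

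Cd44 overlapped in all 4 sets. The log2 fold changes were 0.27 and 0.39 in the VavCre Arid1b and Arid2 sets and -0.55 and -0.15 in the MxCre sets titled A2 and A1b. The A2-titled set had 104, 163 and 456 CPM in floxed libraries and 447, 281 and 329 CPM in controls. Floxed 3 held the high value, and without the libraries that stood apart the change was -1.39 (edgeR adjusted p 0.0441). Apart from floxed 3, the libraries removed in that fit belong to other sets. With any single library of the A2-titled set left out the change lay at -1.39 to -0.21 and edgeR did not call it. Voom called it with all libraries. Ap1s2 (r 0.89) and Txndc5 (0.89) were most like Cd44.

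Ligands, partners and signalling proteins of the markers formed a list of 31 tested genes. In the VavCre Arid1b set 5 of the 31 rose and 0 fell, beside 6.57% of all tested genes called there (496 higher and 430 lower), and 0 changed in each of the other 3 sets by edgeR. The list's median log2 fold change was 0.36 in the VavCre Arid1b set, beside -0.06 for all tested genes. The interleukin-1 receptor Il1r1, which pairs with Il1rap, averaged 11.01 ± 8.87 CPM in floxed libraries and 0.85 ± 0.22 CPM in controls (SD, n = 3 each, log2 fold change 3.68, edgeR adjusted p 0.0318). Fyn, the kinase downstream of Cd244, averaged 20.1 ± 9.44 CPM in floxed libraries and 4.15 ± 1.89 CPM in controls (2.27, edgeR adjusted p 0.0430, n = 3 each). Ptpn6, the phosphatase recruited by inhibitory receptors, rose by 0.59 (adjusted p 0.0405), and Sirpa, the receptor for Cd47, by 0.95 (0.0472). Cd48, the ligand of Cd244, was at 1.68 and was not called (0.0699). These calls were near the threshold, and with control 1 or floxed 3 of that set left out Il1r1, Fyn and Ptpn6 all lost theirs (adjusted p 0.0978 to 0.163). With single libraries of the set left out, Fyn kept its call only without floxed 1, Il1r1 only without floxed 1 or 4, and Ptpn6 only without control 2 or floxed 1. Without the libraries that stood apart Il1r1 (adjusted p 0.0724) and Ptpn6 (0.116) lost their calls and Fyn kept its own (0.0309). With the term for Y-positive libraries all 3 were lost (0.0722, 0.104 and 0.148 for Il1r1, Ptpn6 and Fyn). In that set, 10 of 12 dendritic cell and MHC class II genes and 3 of 9 monocyte genes rose as well, and their part was not tested.

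In the VavCre Arid2 set the list's smallest p-values belonged to Thbs1, a ligand of Cd47, and Il1rn, the interleukin-1 receptor antagonist. Thbs1 averaged 4.30 ± 2.53 CPM in floxed libraries and 71.2 ± 67.2 CPM in controls (SD, n = 3 each, -4.05, edgeR adjusted p 0.0658), and Il1rn was at -3.36 (0.0725). Both passed in edgeR without the libraries that stood apart (0.0247 and 0.0386), none of which belongs to the VavCre Arid2 set. Among A2-titled libraries they belonged to Rdx, which links Cd44 to actin (1.00, adjusted p 0.280), and the adaptor Sh2d1b1 (1.03, 0.281). Among A1b-titled libraries they belonged to the adaptor Dok1 (0.87, 0.0623) and Spp1, or osteopontin, a ligand of Cd44 (3.74, 0.0664). Dok1 and Spp1 passed when floxed 1 of that set was left out, at 0.00185 and 0.00492, and Dok1 also without its control 2, at 0.0433.

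Other surface markers of stem cells and progenitors formed a list of 27 tested genes. Of these 1 rose and 3 fell in the VavCre Arid1b set, beside 6.57% of all genes called, and 1 fell in the VavCre Arid2 set, beside 1.31%. By edgeR 0 changed in either MxCre set. With the term for Y-positive libraries all 5 calls were lost, at adjusted p of 0.0543 for Eng, 0.288 for Kit, 0.105 for Cd69 and 0.164 for Slamf1 in the Arid1b set, where sex and genotype cannot be told apart, and 0.0684 for Eng in the Arid2 set. Eng, or endoglin, fell in both VavCre sets, to 1.15 ± 0.28 CPM in floxed libraries, against 7.02 ± 0.52 CPM in controls of the Arid1b set (SD, n = 3 each, -2.60, edgeR adjusted p 0.0263). In the Arid2 set it averaged 1.47 ± 1.08 CPM in floxed libraries and 9.37 ± 3.11 CPM in controls (-2.67, edgeR adjusted p 0.0478, n = 3 each). The Arid2 call was lost without any single library of that set except floxed 3 (adjusted p 0.0846 to 0.211). Kit, the stem cell factor receptor, averaged 35.7 ± 16.7 CPM in floxed libraries and 137 ± 53.6 CPM in controls of the Arid1b set (-1.93, edgeR adjusted p 0.0274, n = 3 each). Among single libraries of the Arid1b set, the Kit call was lost without control 1, control 2, floxed 1 or floxed 3 (0.0601 to 0.106), and the Eng call without control 1, control 3, floxed 3 or floxed 4 (0.0567 to 0.117). For the A1b-titled set Kit averaged 39.6 ± 25.5 CPM in floxed libraries and 137 ± 31.5 CPM in controls, which among single libraries left out passed only without floxed 1 (adjusted p 0.118 with all, 0.0117 without). Cd69, an early activation antigen, rose in the Arid1b set (0.98, edgeR adjusted p 0.0390), and with single libraries of the set left out kept this call only without control 2. Without the libraries that stood apart its adjusted p was 0.0520. Slamf1, or CD150, a marker of normal blood stem cells, had 1 count in the floxed libraries and 29 counts in the controls of that set, a ratio of 0.0318 with a 95% counting interval of 0.000780 to 0.192 that covers counting error only (edgeR adjusted p 0.0202), and its call was lost without control 1 or any single floxed library (0.0598 to 0.129). For the A2-titled set the smallest p-values of this list were those of Cd36 (3.54, adjusted p 0.267, and 1.85 without the libraries that stood apart) and Cd69 (0.89, 0.280), and in the set titled A1b those of Kit and Cd36 (2.29, 0.242).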

How the data were processed

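RNA was extracted with TRIzol, polyadenylated RNA selected and strand-keeping libraries made, per the labels' protocols, and reads were aligned with STAR to mm10, per the submitters' processing notes. Versions, counter, annotation and strand setting were not given in the sources at hand. The authors deposited raw counts, whole numbers for each gene symbol, with 1 column per library and 0 columns unused. Column names matched the titles, which also placed the libraries in groups.

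edgeR 4.0.16 in R 4.3.3 kept genes with filterByExpr (minimum count 10, total 15), scaled by trimmed mean of M values, and fitted 1 robust quasi-likelihood model with 8 group means to all 24 libraries, with Benjamini-Hochberg adjustment over 14099 genes and a threshold of 0.05. CPM use the same scaling. Correlations use log2 CPM with a prior count of 2. For a check, counts of all 24 libraries were simulated from the levels and spread of the whole series, with changes placed in VavCre Arid1b floxed. Over 13940 genes the fit recovered 67% of 4-fold and 81% of 8-fold changes there. With changes placed in each other set instead, it recovered 61% to 75% of 4-fold and 72% to 83% of 8-fold changes. The changed genes were drawn at random, so these shares are not those of genes as uneven as Cd34. Alternatives were DESeq2 1.42.0, voom in limma 3.58.1, DESeq2's size factors in edgeR, no filter, a set's 6 libraries alone, a replicate block, a term for Y-positive libraries, and libraries left out.

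The 10 markers and all lists were chosen with earlier results of these data known. From the 2 lists of partners and of other surface markers, up to 4 called genes per set by smallest p were named, or otherwise the 2 with the smallest p. Sirpa and Cd48 were named after their values were seen. A called gene of the partner list is counted but not reported here by name. For each marker the 2 most correlated genes were named, predicted genes left out. Positions and exon lengths are from GENCODE M21 and promoters from RefSeq, both on GRCm38. Replicates of a group differed by more than counting noise.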

Additional observations from a re-analysis of the deposited data

How the results depend on the processing

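Depth limited Ly6a most, at about 1 CPM, and the spread between libraries limited Cd34. Intervals from counts cover counting error only. For the counts below the cause was not tested.

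The number of markers called in the VavCre Arid1b set was 1 with DESeq2's size factors, 1 in DESeq2, 5 in voom and 1 with the set's 6 libraries alone, against 0 as reported. In the VavCre Arid2 set it was 2 in DESeq2, 7 in voom and 1 without the libraries that stood apart, and in the MxCre set titled A2 1 in each of these. Voom called 2 for the difference between the VavCre sets, and 5 among the control groups. For the change among the 4 sets the counts were 3 in DESeq2, 7 in voom, 5 without the libraries that stood apart, and 0 to 3 when single libraries were left out. Among the 8 groups they were 9 in voom, 0 with no filter, with a replicate block or with a term for Y-positive libraries, and 0 to 2 without single libraries.

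Counts over all genes moved further. In the VavCre Arid1b set 926 became 1815 (DESeq2), 4203 (voom), 101 (Y term) and 62 to 734 without single libraries. In the VavCre Arid2 set 185 became 103 (no filter), 1095, 4684, 1030 (own libraries), 104 (Y term), 1144 (without the libraries that stood apart) and 15 to 227. In the set titled A2, 4 became 196, 1223, 0 (Y term), 33 and 0 to 18, and in the set titled A1b 1 became 0 (no filter, own libraries), 478, 12, 2, 8 and 0 to 1535. The difference between VavCre sets became, instead of 2, 252, 2494, 4 (Y term), 144 and 2 to 13, and the count for the change among 4 sets, 687, became 373 (no filter), 2644, 7393, 246 (Y term), 2229 and 182 to 2015. Among the 8 groups 1125 became 3810, 10707, 673 (Y term), 3167 and 400 to 2775, and among control groups 13 became 348, 4993, 1 (Y term), 151 and 2 to 51. Samples of the same number did not deviate together (correlations of -0.22 to 0.26), so the replicate numbers are not taken as pairs. With a replicate block the genes called were 1, 3 and 1 in the first 3 sets, 2 for the change among sets, 1 among the 8 groups and 1 among controls.

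Some marker values changed sign, all of them uncalled in both settings. With the replicate block the VavCre Arid1b values of Cd34, Cd200r1 and Clec12a became 1.96, 0.64 and 0.24, and the difference between VavCre sets of Cd44 0.15. With the Y term Cd34 and Cd200r1 became 0.34 and 0.70 in that set, Cd200r1 and Cd47 -0.37 and -0.17 in the set titled A2, and the VavCre differences of Cd33, Il1rap and Cd93 -0.18, 0.063 and 0.17. Without the libraries that stood apart Cd44 became -0.013 in the VavCre Arid1b set, Cd33, Cd200r1 and Cd47 -0.11, -0.79 and -0.052 in the set titled A2, and the VavCre differences of Cd33, Clec12a and Cd244 -0.083, -0.11 and -0.33. Voom gave -0.40, -0.67 and -0.0047 for Cd33, Cd200r1 and Cd47 in the set titled A2, -0.030 and -0.15 for Clec12a and Cd244 in the set titled A1b, and -0.53 for the VavCre difference of Cd244. Cd47 was -0.012 in the set titled A2 with no filter, and Cd34 0.0035 there with the set's own libraries.

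When single libraries were left out, Cd200r1 lay at -0.48 to 0.28, Clec12a at -0.35 to 0.26 and Cd44 at -0.0012 to 0.46 in the VavCre Arid1b set. In the set titled A2 Cd47 lay at -0.070 to 0.11, Cd34 at -1.98 to 0.54, Cd33 at -0.11 to 0.56 and Cd200r1 at -0.79 to 0.76. In the set titled A1b Ly6a lay at -1.31 to 0.58, Clec12a at -0.065 to 0.54, Cd244 at -0.70 to 0.43, Cd44 at -0.36 to 0.073 and Il1rap at -0.028 to 0.53. The VavCre differences lay at -0.40 to 0.071 for Cd44, -0.10 to 0.65 for Cd33, -0.091 to 0.52 for Clec12a and -0.47 to 0.46 for Cd244.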
